A study of Mus musculus with 4 samples.

Results

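The subject is the MHC class II genes of mouse brain myeloid cells and the genes that load and drive them. The set holds 9 genes of the 32372 gene features in the matrices, and each was found by its symbol: H2-Aa, H2-Ab1, H2-Eb1, Cd74, H2-DMa, H2-DMb1, H2-DMb2, Ciita and Ifi30. Single-cell RNA was counted in 4 libraries, 2 of genotype APP/PS1:miR-155 cKO (called cKO here) and 2 of genotype APP/PS1 (called Control). Control mice were thus not healthy mice: every animal carried APP/PS1, transgenes that make mice deposit amyloid plaques, and was labelled female and aged 4 months. In the cKO mice the microRNA miR-155 is labelled as deleted in microglia. The labels name no Cre driver and no deleted segment, and they do not say how many animals entered a library. Cells came from the left hemisphere over a Percoll gradient, were sorted with antibodies to CD11b and CD45, and were made into libraries with the 10x Genomics 3′ chemistry (version 3.1).

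MHC class II molecules carry peptides of engulfed protein to the cell surface, where CD4+ T cells read them. An alpha chain and a beta chain (H2-Aa and H2-Ab1 for the A molecule) pair on the invariant chain, Cd74. Cd74 keeps the groove filled until proteases remove it. H2-Eb1 is the beta chain of the E molecule, which has an alpha chain of its own. H2-DMa with H2-DMb1 or H2-DMb2 forms the DM chaperone that exchanges the last fragment of Cd74 for peptide, Ifi30 is the thiol reductase that opens disulphide bonds in the engulfed protein, and Ciita is the coactivator that switches the class II promoters on. In the brain, macrophages of the borders (meninges, perivascular space, choroid plexus) and dendritic cells are known for class II, resting microglia for little of it, and microglia near amyloid plaques for more. Ciita itself does not bind DNA: it is held at class II promoters by factors on the X1, X2 and Y boxes.

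The promoters are shown because class II genes are known for this layout, and the values below divide the 9 genes into those that moved together and those that did not. A link between the promoter letters and that division was not tested. The 67-base stretches below are RefSeq sequence of build GRCm38.p6 on chromosome 17. They were cut from the gene's strand around the letters found in windows from 250 bases before to 50 bases after the RefSeq start. The windows of H2-DMa and H2-DMb2 lie inside the GENCODE spans given for these genes below. Capitals mark TGATTGG (the Y box core), GATGATGC (an X2 core) and TGACGTCA (the cyclic AMP element that X2 boxes resemble), each of which was searched on both strands.
H2-Aa promoter, chr17:34287857-34287923, minus strand: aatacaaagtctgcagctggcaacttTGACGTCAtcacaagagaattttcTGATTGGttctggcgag
H2-Eb1 promoter, chr17:34305756-34305822, plus strand: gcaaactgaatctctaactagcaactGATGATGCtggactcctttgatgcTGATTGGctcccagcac
H2-DMb1 promoter, chr17:34153078-34153144, plus strand: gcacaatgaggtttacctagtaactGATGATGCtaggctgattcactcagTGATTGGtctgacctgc
H2-DMb2 promoter, chr17:34145107-34145173, plus strand: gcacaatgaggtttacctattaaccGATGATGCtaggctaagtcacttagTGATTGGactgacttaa
Between the X2 core and the Y box core lie 16 bases in H2-Eb1 and 17 in both H2-DMb genes. The Y box core is in 7.82% of the 32851 windows of the RefSeq table, the X2 core in 0.703%, TGACGTCA in 1.79%, and both the Y box core and the X2 core in 16 windows (0.0487%). The windows of H2-DMa and of Ifi30 hold none of the 3 strings, which says only that these letters are not there. The GENCODE start of H2-DMa lies outside its windows. No promoter sequence is shown for H2-Ab1, Ciita and Cd74.

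Of the 9 genes, 6 lie close together on chromosome 17 (GRCm38 with GENCODE M21): H2-DMa (chr17:34119541-34139101), H2-DMb2 (chr17:34143307-34151555), H2-DMb1 (chr17:34153072-34160230), H2-Ab1 (chr17:34257689-34269419), H2-Aa (chr17:34282744-34287823) and H2-Eb1 (chr17:34305867-34316674). Ciita is at chr16:10480059-10528418, Cd74 at chr18:60803848-60812652 and Ifi30 at chr8:70762774-70766663.

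Barcodes were kept as cells from 1000 UMIs (unique molecular identifiers, 1 per captured transcript) and 500 genes upward, if mitochondrial UMIs made up no more than 10%. The 2 cKO libraries held 3828 and 2852 cells and the 2 Control libraries 4351 and 2909, with median depths of 6158 to 7236 UMIs; 14 barcodes occurred in more than 1 library. Control replicate 1 stands apart: it held 27 UMIs of Xist, the RNA of the inactive X chromosome, although labelled female, against 44539 to 63129 in the other 3 libraries. The deposited names give cKO replicate 2 another run code than the other 3 libraries. The genotype changes that passed a test are therefore also given without each library below. Mir155hg, the host transcript of miR-155, had 1 UMI in each cKO library and 7 and 11 UMIs in the Control libraries, and the mature microRNA was not measured.

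Microglia were gated by UMIs of at least 3 of 8 markers, among them P2ry12, Tmem119 and Cx3cr1, and by no other gate. They made up 3788 and 2803 cells in cKO and 4300 and 2878 in Control, at least 98.3% of each library. Shares of cells with a UMI were compared after each cell was thinned to 2000 UMIs, which left out 235 and 157 shallower microglia in cKO and 338 and 261 in Control. Values of a group are given for its replicate 1 and then its replicate 2. Intervals on shares are 95% Clopper-Pearson intervals and cover counting error only.

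Transcripts of the surface chains were sparse in microglia. H2-Aa, the alpha chain of the A molecule, had a UMI in 2.76% and 2.57% of cKO microglia and in 1.19% and 1.99% of Control microglia. H2-Ab1, its beta chain, was found in 5.91% and 6.24% of cKO and in 4.09% and 5.31% of Control microglia. H2-Eb1, the beta chain of the E molecule, was found in 1.72% and 2.46% of cKO and in 0.681% and 1.60% of Control microglia. For these 3 genes both cKO libraries lay above both Control libraries. The pseudogene of the E alpha chain, H2-Ea-ps, had 0 UMIs in every library.

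Cd74, the invariant chain, had a UMI in 12.5% and 11.0% of cKO microglia and in 8.53% and 11.9% of Control microglia, so the groups overlapped. Positive cells carried few copies: their mean was 2.10 and 2.47 UMIs of Cd74 in cKO and 1.97 and 2.83 in Control, and the median was 1 UMI in each library. For H2-Aa the mean per positive cell was 1.99 and 2.18 UMIs in cKO and 2.94 and 3.46 in Control. The median was again 1 UMI in each library, and the maximum was 31 UMIs, in 1 cell of Control replicate 1.

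The loading machinery was spread far more widely. H2-DMa had a UMI in 39.3% and 33.7% of cKO and in 36.7% and 37.5% of Control microglia. H2-DMb1 was found in 21.7% and 22.1% of cKO and in 21.8% and 19.5% of Control microglia. H2-DMb2 was found in 0.909% to 0.945% of microglia in each library. The longest transcripts of H2-DMb1 and H2-DMb2 are 94.6% identical over their aligned bases, but none of the 50-base words in the last 500 bases of H2-DMb2 occurs in H2-DMb1. Ifi30 was found in 27.7% and 28.5% of cKO and in 25.1% and 25.8% of Control microglia. Ciita was at the edge of detection, with 0 of 3553 and 4 of 2646 cells in cKO and 2 of 3962 and 5 of 2617 in Control, and the count of 0 in cKO replicate 1 allows a share of up to 0.0844%, taken as 3 counts of the total. In all, both cKO libraries lay above both Control libraries for 5 of the 9 genes (H2-Aa, H2-Ab1, H2-Eb1, H2-DMb2 and Ifi30), where 25.9% of the 13506 genes tested did so. With 2 libraries against 2 the exact two-sided permutation p cannot go below 0.333, which is the value for each of these 5, and 0.6 after Benjamini-Hochberg adjustment over the 9 genes. At full depth the count was 3 of 9, and H2-Ab1 and H2-DMb2 then overlapped. No count over all genes was made at that depth.

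**Figure D1:**
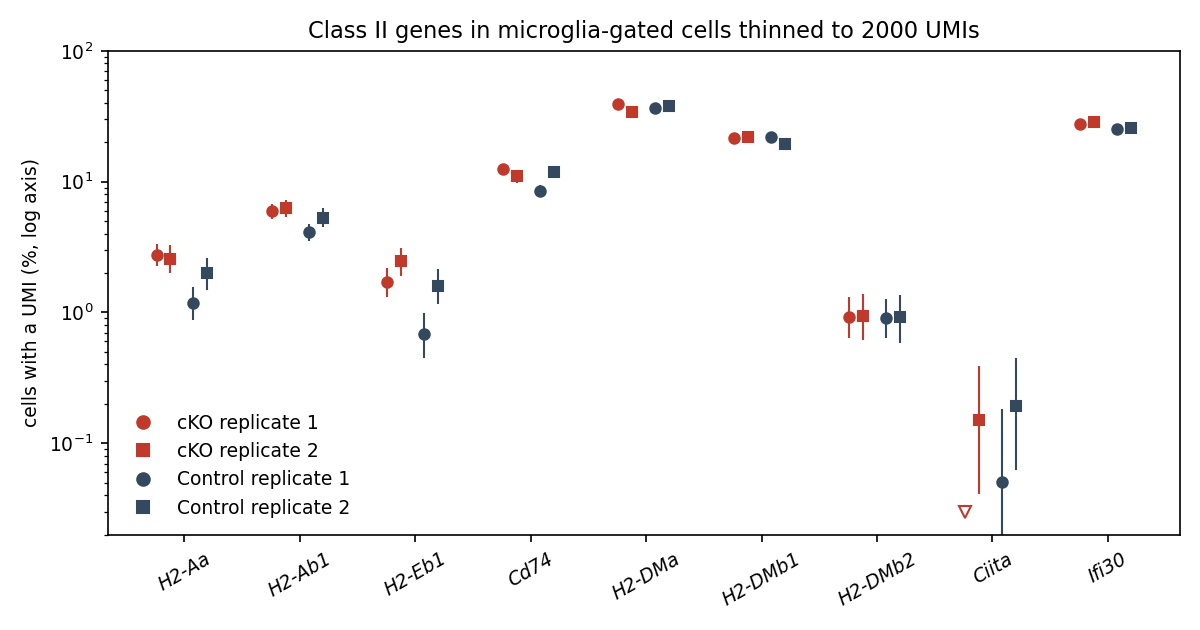
Share of microglia with a UMI of each gene after thinning to 2000 UMIs, on a log axis, for cKO (red) and Control (dark) libraries; bars are 95% Clopper-Pearson intervals and the open triangle marks a share of 0. H2-DMa, Ifi30 and H2-DMb1 lie above 19% in every library, while H2-Aa and H2-Eb1 lie below 3%.

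Free RNA was measured in barcodes of at most 100 UMIs, which held 11.2% to 17.8% of all UMIs, since too few cells of a type that should lack class II were present. Drawing 2000 UMIs from that pool alone would give an H2-Aa UMI in 5.16% and 4.57% of draws in cKO and in 3.41% and 6.18% in Control. The microglial shares of H2-Aa given above lie below these values, and so do those of H2-Ab1, H2-Eb1 and Cd74, so no difference between genotypes is read from them. The CPM level (UMIs scaled to a common total of all UMIs in the gate or pool) went the other way: in microglia it was 1.07 to 1.70 times that of the pool for H2-Aa, 1.26 to 1.80 times for H2-Ab1 and 1.41 to 1.85 times for Cd74, beside 1.37 to 1.88 times for H2-DMa. For H2-Eb1 it was 1.30 and 1.66 times that of the pool in cKO and 0.787 and 0.872 times in Control. The pool's H2-Aa level was 26.5 and 23.4 CPM in cKO and 17.3 and 31.9 in Control, so the genotypes overlapped. The share of H2-DMb1 was above that of the pool, whose draws would give 12.2% and 10.7% in cKO and 13.7% and 13.4% in Control, as were those of H2-DMa and Ifi30.

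A large part of the class II UMIs lay in few cells. Summed over Cd74 and the chains H2-Aa, H2-Eb1 and H2-Ab1 (the 4 core genes), the 1% of microglia with the highest sums held 41.6% and 43.9% of those UMIs in cKO and 53.0% and 52.3% in Control. No UMI of the 4 genes was found, at full depth, in 66.4% and 69.0% of cKO microglia and in 70.7% and 67.2% of Control microglia. A single cell of Control replicate 1 held 1042 UMIs of the 4 genes.

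Another part lay outside the microglia gate. Border macrophages were gated by UMIs of at least 2 of Mrc1, Pf4 and Ms4a7, which gave 8 and 10 barcodes in cKO and 10 and 5 in Control, 33 in all. They carried markers of both kinds: 27 of the 33 also held UMIs of all 8 microglia markers, whose summed level was 14155 to 22694 CPM in border-gated barcodes and 18970 to 21897 CPM in microglia. The 6 further border markers summed to 459 and 299 CPM in border-gated barcodes of cKO and 162 and 666 in those of Control, against 57.1 and 56.5 in microglia of cKO and 51.5 and 50.7 in microglia of Control. Of these markers, Lyve1 was at 0 in 3 of the 4 libraries and Cbr2 and Cd163 in 2. The 4 monocyte markers summed to 189 and 57.2 CPM in border-gated barcodes of cKO and 73.5 and 171 in those of Control. In microglia they summed to 7.89 and 8.28 in cKO and 9.08 and 7.04 in Control. Ly6c2 and Chil3 were at 0 in the border-gated barcodes of every library and Ccr2 in none. For these reasons the 33 are called border-gated barcodes. A second gate, for blood cells, took barcodes with at least 2 markers of monocytes, dendritic cells, B cells, T and NK cells or neutrophils, and held 22 and 9 barcodes in cKO and 17 and 9 in Control.

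Border-gated barcodes were at most 0.351% of any library, yet held 15.8% and 21.8% of all H2-Aa UMIs in cKO and 17.9% and 9.67% in Control. For H2-Eb1 the border share was 20.2% and 27.7% in cKO and 19.8% and 13.2% in Control. Blood-gated barcodes held a further 30.97% and 16.4% of H2-Aa UMIs in cKO and 29.3% and 8.67% in Control. The machinery was not divided in this way: border-gated barcodes held 0.993% and 1.08% of H2-DMa UMIs in cKO, and 0.737% and 0.477% in Control.

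**Figure D2:**
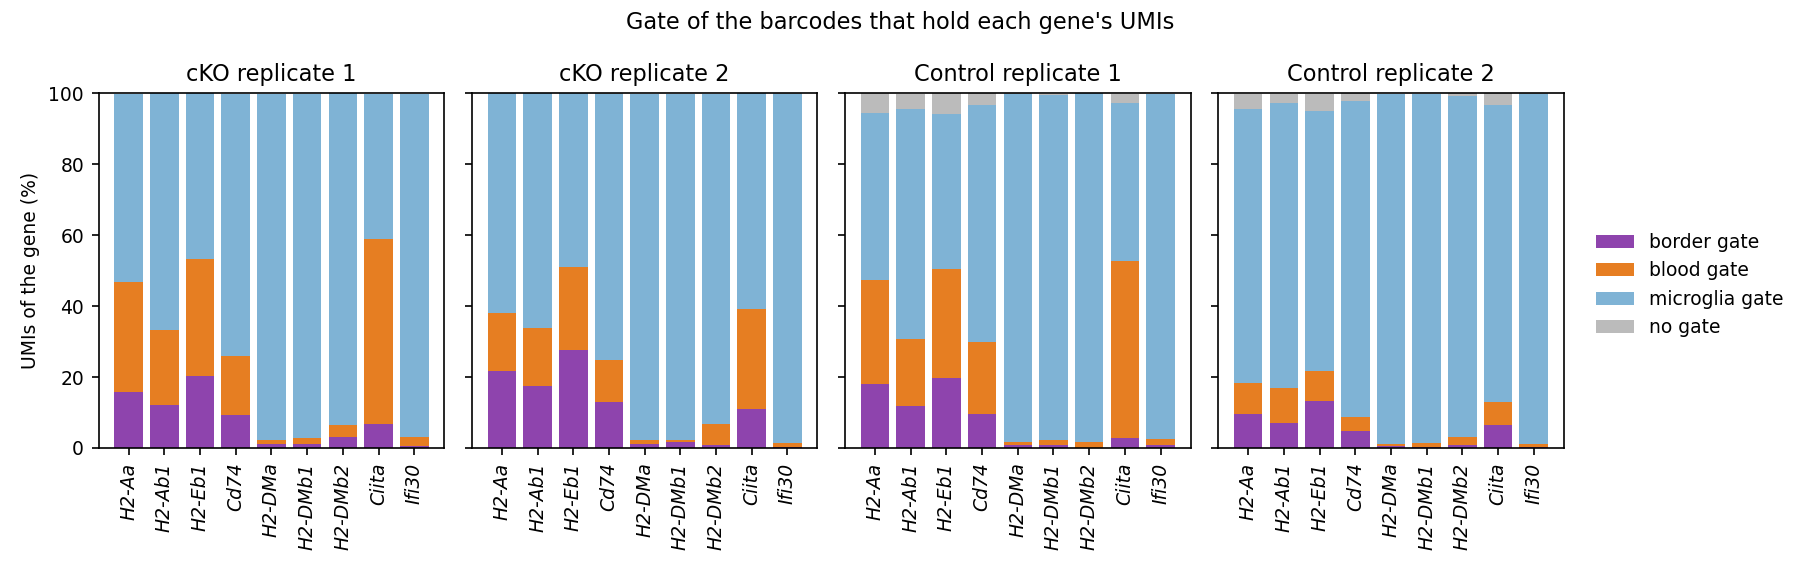
Where each gene's UMIs lie, as percent of that gene's UMIs in kept barcodes of a library, split by border (purple), blood (orange) and microglia (blue) gates, with barcodes of no gate in grey. Of H2-Eb1 UMIs, 20.2% and 27.7% are border-gated in cKO replicates 1 and 2, while H2-DMa, H2-DMb1 and Ifi30 lie almost wholly in microglia.

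Border-gated barcodes carried much more of the surface chains than microglia did. H2-Aa averaged 1572 and 2282 CPM in border-gated barcodes of cKO and 1110 and 2035 in those of Control, against 29.8 and 39.6 in microglia of cKO and 19.98 and 34.0 in microglia of Control. In edgeR, fitted to a border and a microglia sum from each library and blocked by library, H2-Eb1 was higher by 6.17 ± 0.19 on the log2 scale (SE), H2-Aa by 5.67 ± 0.19, H2-Ab1 by 4.99 ± 0.18 and Cd74 by 4.43 ± 0.18. Ciita, with 16.2 and 31.8 CPM in cKO border-gated barcodes and 3.87 and 38.0 in Control ones, was higher by 4.49 ± 0.86 (adjusted p = 4.7e-05). H2-DMb1 was higher by 0.71 ± 0.20 (adjusted p = 0.0451). H2-DMa (0.59, adjusted p = 0.0977), H2-DMb2 (1.03) and Ifi30 (-0.10) did not pass. Scaling to total UMIs moved the median of all genes by 0.12, and H2-DMa then passed (0.73, adjusted p = 0.0045) while Ifi30 was at 0.028. With TMM factors 6 of 9 genes were higher, where 0.719% of the 12103 genes tested were higher (87 higher and 21 lower, and 53 and 3 in DESeq2). The call of H2-DMb1 was lost without cKO replicate 1, without cKO replicate 2 and without Control replicate 2, at adjusted p of 0.507, 0.999 and 0.0529, in DESeq2 (0.283), with no filter on low counts (0.0863), with all 3 border markers required (0.295) and without the library block (0.191), so that it was lost in 7 of 10 alternatives. That of Ciita was lost without Control replicate 2 (0.0655).

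The gate was mixed within itself. At 2000 UMIs, 4 of 8 and 8 of 10 border-gated barcodes in cKO, and 4 of 10 and 4 of 5 in Control, had a UMI of H2-Aa. The E beta to invariant chain ratio differed by gate: H2-Eb1 had 41.9 and 49.0 UMIs per 100 UMIs of Cd74 in border-gated barcodes of cKO and 43.9 and 52.4 in those of Control, against 10.4 and 15.0 in cKO and 7.35 and 9.32 in Control in the MGnD-high microglia described next. In near-empty barcodes the ratio was 15.2 and 16.7 in cKO and 25.5 and 24.9 in Control. Border genotype differences were not tested, with 5 to 10 barcodes per library.

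Within microglia, class II genes were found in the same cells. Among microglia with an H2-Aa UMI, 54.5% also had H2-Ab1, 37.4% H2-Eb1 and 74.5% Cd74 (means of the 4 libraries), against 4.29%, 0.807% and 9.55% of microglia without H2-Aa. H2-DMa differed less, at 55.7% with and 36.4% without H2-Aa, and Ifi30 was at 25.8% with and 26.8% without. All 4 libraries had this order for H2-Ab1, H2-Eb1, Cd74 and H2-DMa.

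**Figure D3:**
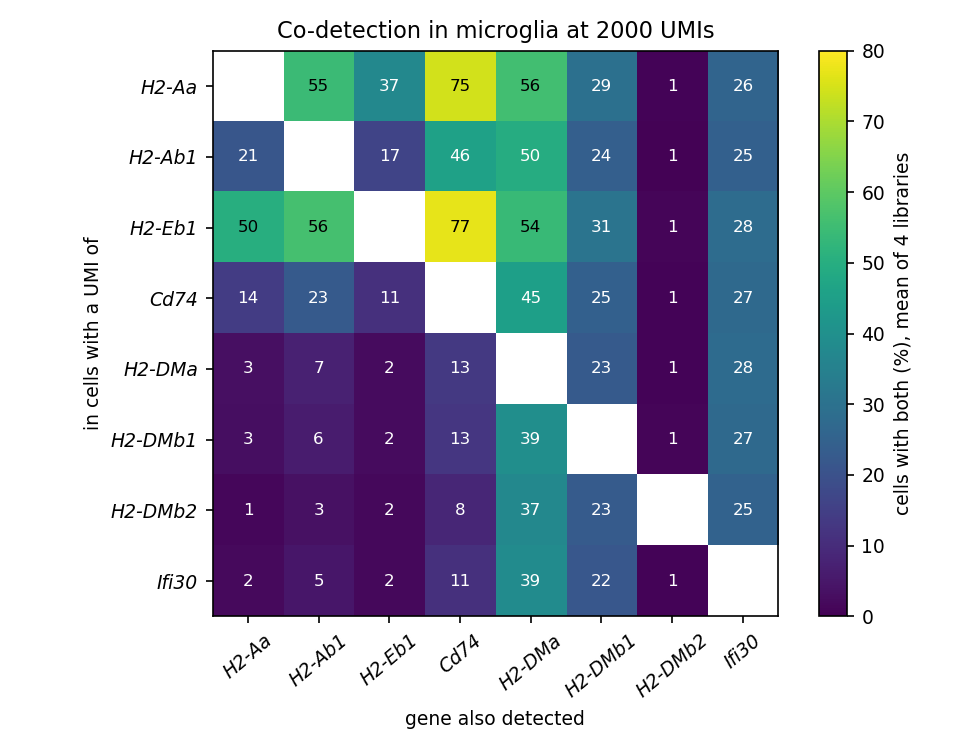
Percent of microglia with a UMI of the row gene that also had a UMI of the column gene, at 2000 UMIs, as the mean of 4 libraries. Cells with H2-Aa had Cd74 in 74.5% and H2-DMa in 55.7% of cases, and H2-Aa itself was rare in the rows of the DM genes and Ifi30.

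The shares of H2-Aa, H2-Ab1, H2-Eb1, H2-DMa and H2-DMb1 rose at each step of Cd74 copies, over all 4 libraries together. That of Ciita rose too, from 0.0351% with no Cd74 UMI to 7.89% with at least 10, on few positive cells. Those of Ifi30 and H2-DMb2 did not. Within Control replicate 1 H2-DMa and H2-DMb1 did not rise at each step, with 33.3% and 11.1% of 9 cells at 5 to 9 copies. In cKO replicate 2 H2-DMb1 was at 21.6% with no Cd74 UMI and 20.5% with 1. H2-Aa was found in 0.570% of microglia with no Cd74 UMI, 4.82% with 1, 19.3% with 2 to 4, 59.5% with 5 to 9 and 94.7% of the 38 cells with at least 10. H2-DMa was found in 36.0%, 41.3%, 48.0%, 57.1% and 78.9% over the same steps, and Ifi30 in 26.6%, 25.8%, 31.1%, 21.4% and 36.8%. The last step holds few cells, and these shares are descriptions without a test.

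MGnD is the neurodegenerative or disease-associated state that microglia take near plaques. A microglia was called MGnD-high when it had UMIs of at least 3 of 12 state genes (Clec7a, Itgax, Lpl, Cst7, Spp1, Gpnmb, Csf1, Igf1, Fabp5, Ank, Ch25h and Mamdc2) among its 2000 thinned UMIs, and no class II gene is in that list. The call gave 614 and 250 cells in cKO and 839 and 555 in Control, 17.3% and 9.45% of cKO microglia and 21.2% of Control microglia in both libraries. There were 804 cells with exactly 3 state genes and 984 with exactly 2. MGnD-high cells were deeper before thinning, with medians of 10260 to 12986 UMIs against 5934 to 7234 in other microglia.

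MGnD-high microglia had more H2-Aa, H2-Ab1 and Cd74 than other microglia in all 4 libraries, while H2-Eb1 and Ciita did so in cKO and not throughout Control, by CPM. Cd74 averaged 383 and 539 CPM in MGnD-high cells of cKO and 168 and 232 in those of Control, against 94.9 and 108 in other microglia of cKO and 76.1 and 148 in those of Control. In the edgeR fit with the library as a block Cd74 was higher by 1.82 ± 0.18 on the log2 scale, H2-Aa by 1.76 ± 0.28, H2-Ab1 by 1.75 ± 0.18, H2-Eb1 by 1.15 ± 0.31 (adjusted p = 0.00507) and Ciita by 1.60 ± 0.50 (adjusted p = 0.0122). H2-Eb1 was at 39.8 and 80.9 CPM in MGnD-high cells and 13.3 and 16.2 in other microglia of cKO, but at 12.3 and 21.6 in MGnD-high cells and 14.6 and 29.2 in other microglia of Control, so that its CPM was lower with the state in both Control libraries. The share of cells with an H2-Eb1 UMI was not: at 2000 UMIs it was 2.26% and 2.34% in MGnD-high cells and 0.256% and 1.41% in other microglia of Control, and the 8 other microglia of Control replicate 1 with the gene held up to 28 UMIs. Ciita was at 1.26 and 4.18 CPM in MGnD-high cells and 0.355 and 0.452 in other microglia of cKO, and at 0.286 and 1.14 in MGnD-high cells and 0.484 and 0.889 in other microglia of Control. H2-DMa was higher by 0.69 ± 0.037, and H2-DMb1 by 0.33 ± 0.040 with TMM factors but by 0.037 (adjusted p = 0.409) when scaled to total UMIs. Ifi30 was lower, with a log2 change of -0.34 ± 0.041, at 128 and 117 CPM in MGnD-high cells of cKO and 111 and 103 in those of Control, against 190 and 191 in other microglia of cKO and 162 and 169 in those of Control. H2-DMb2 (0.057) did not pass. So 7 of 9 genes were higher and 1 lower, where 27.9% of the 12389 genes tested were higher and 27.2% lower. Scaling to total UMIs in place of TMM moved the median of all genes by -0.29 on the log2 scale, and 1792 genes were then higher and 7210 lower, against 3458 and 3371 with TMM. Under it 6 of the 9 genes were higher and 1 lower: the 3 chains, Cd74, Ciita and H2-DMa kept their calls (1.47, 1.45, 0.86, 1.53, 1.31 and 0.40 for H2-Aa, H2-Ab1, H2-Eb1, Cd74, Ciita and H2-DMa), Ifi30 was at -0.63, and H2-DMb2 turned to -0.23. Ciita lost its call without cKO replicate 1 (adjusted p = 0.0603) and without cKO replicate 2 (0.143), and H2-Eb1 without cKO replicate 1 (0.0596) and in DESeq2 (0.155).

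**Figure D4:**
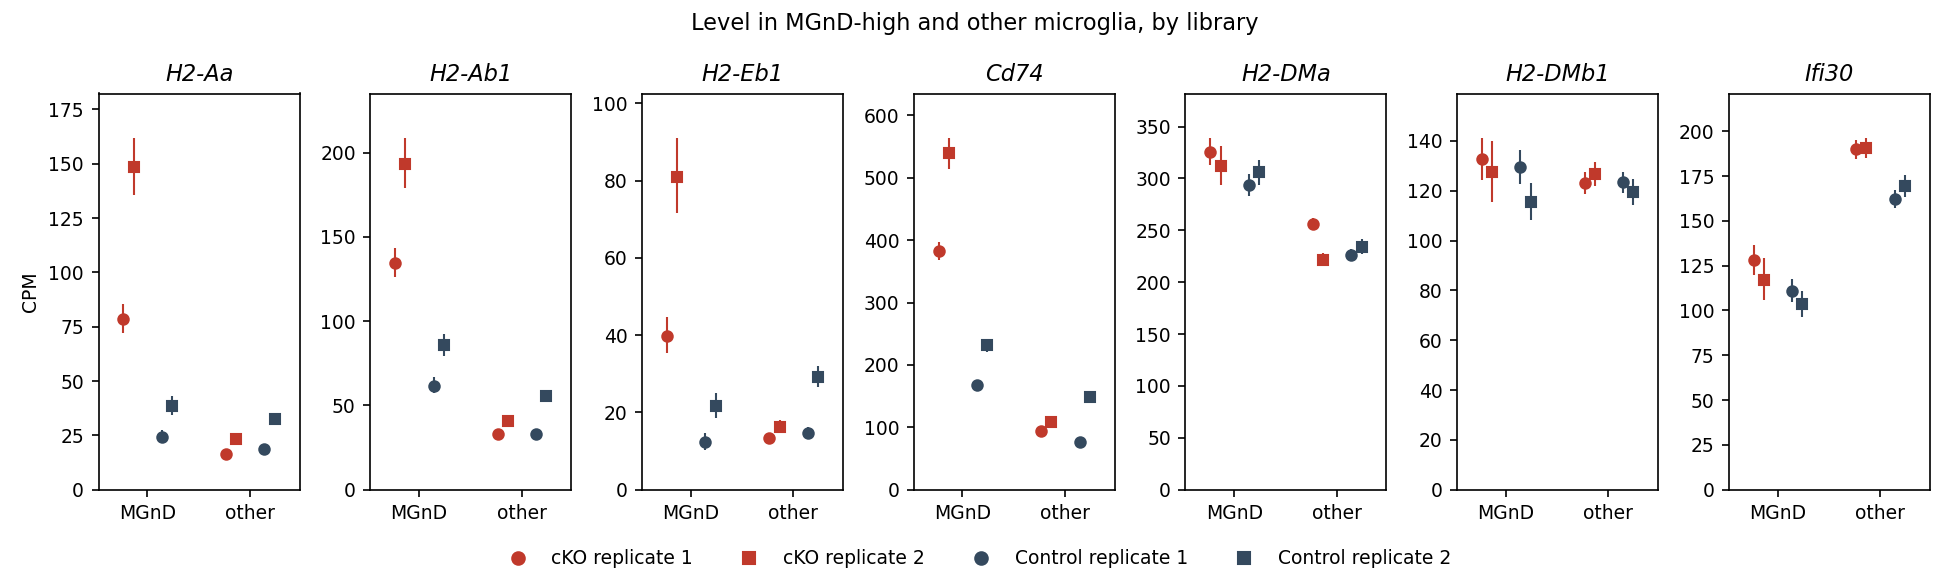
Level in CPM, with 95% Poisson counting intervals, in MGnD-high and other microglia of each library; cKO is red and left, Control dark and right. In the 3 chain panels and the Cd74 panel both cKO libraries are highest in MGnD-high cells (for Cd74 383 and 539 in cKO, against 168 and 232 in Control), and Ifi30 is lower in MGnD-high cells of every library.

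The share of MGnD-high cells with a UMI was also higher in cKO for the chains and Cd74. H2-Aa had a UMI in 8.47% and 8.80% of them in cKO and in 3.34% and 3.24% in Control, and Cd74 in 33.2% and 31.6% in cKO and in 19.7% and 25.0% in Control. The cKO shares of H2-Aa lie above the draws from free RNA given above and the Control shares below them, as for H2-Eb1, while those of Cd74 and H2-Ab1 lie above them in all 4 libraries. Both cKO libraries lay above both Control libraries for 5 of the 9 genes (H2-Aa, H2-Ab1, H2-Eb1, Cd74 and Ifi30), where 20.2% of the 11547 genes tested did so. H2-DMa lay the other way, at 43.2% and 40.4% in cKO and 43.6% and 44.0% in Control.

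A cell was called class II positive when 2 or more of the 4 core genes had a UMI at 2000 UMIs. That held for 14.2% and 17.6% of MGnD-high microglia in cKO (95% intervals 11.5 to 17.2 and 13.1 to 22.9) and for 5.60% and 7.03% in Control (4.15 to 7.38 and 5.04 to 9.48). In other microglia it held for 2.28% and 2.92% in cKO and for 0.961% and 2.33% in Control, where the groups overlapped. The ratio of MGnD-high to other microglia was 6.22 and 6.02 in cKO and 5.83 and 3.02 in Control. The MGnD-high means of 15.9% ± 2.43 for cKO and 6.31% ± 1.01 for Control (SD, 2 libraries each) lay 9.57 percentage points apart, at the smallest exact permutation p that 2 against 2 allow, 0.333. Over all microglia the share was 4.33% and 4.31% in cKO and 1.94% and 3.32% in Control, a difference of 1.69 points (exact permutation p = 0.333).

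**Figure D5:**
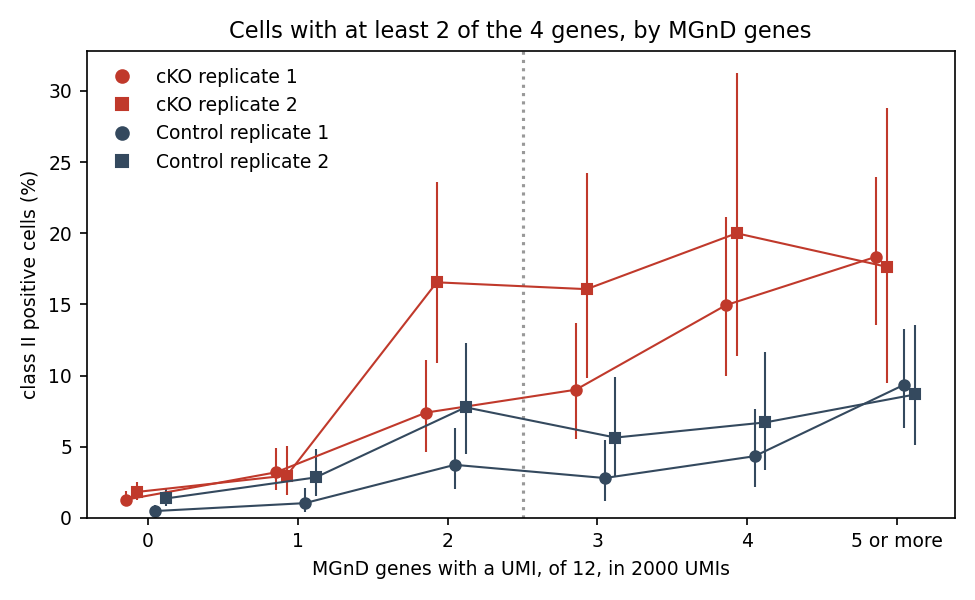
Share of microglia that were class II positive by the number of MGnD genes with a UMI, per library, with 95% Clopper-Pearson intervals; the dotted line is the MGnD-high threshold of 3. From 3 genes upward both cKO libraries lie above both Control libraries, with 19 of 211 and 18 of 112 cells in cKO against 8 of 286 and 11 of 195 in Control at exactly 3 genes.

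The share climbed with the number of state genes in every library, but not at every step. With none of the 12 genes it was 1.28% and 1.82% in cKO and 0.477% and 1.36% in Control. With 2 it was 7.39% and 16.6% in cKO and 3.72% and 7.77% in Control, where cKO replicate 1 lay below Control replicate 2. With 4 it was 14.9% in cKO replicate 1 and 14 of 70 cells in cKO replicate 2, against 4.33% and 6.71% in Control, and with 5 or more 18.3% and 17.6% in cKO and 9.36% and 8.67% in Control.

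For the comparison of genotypes, UMIs were summed per library. Over all microglia none of the 9 genes passed edgeR's quasi-likelihood test with Benjamini-Hochberg adjustment at 0.05, where 0.0296% of the 13506 genes tested passed (3 higher and 1 lower, against 7 and 18 in DESeq2); 1 of the 9 had an unadjusted p under 0.05, and DESeq2 called none of the 9 either. The smallest p of the 9 was that of Ifi30 (log2 change 0.19 ± 0.078, adjusted p = 0.649), whose level was 175 and 180 CPM in cKO and 147 in both Control libraries, without overlap. Cd74 averaged 157 and 164 in cKO and 101 and 173 in Control (log2 change 0.14, adjusted p = 0.910). Without Control replicate 1 its log2 change was -0.23, and without Control replicate 2 it was 0.63 (adjusted p = 0.0229). H2-Aa behaved alike, at -0.10 without Control replicate 1 and 0.75 without Control replicate 2 (adjusted p = 0.0218). Over all kept barcodes, border and blood gates included, 0 of 9 genes and 0% of the 13607 genes passed in edgeR. Of all genes 987 had an unadjusted p under 0.05 and DESeq2 called 24; of the 9, 3 had such a p and DESeq2 called none. H2-Aa was at 0.39 there (adjusted p = 0.541).

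Within MGnD-high microglia the genotypes differed for the chains and Cd74, in a fit added after the values were seen. H2-Aa averaged 78.4 and 148 CPM in cKO and 24.1 and 38.4 in Control, and was higher in cKO by 1.79 ± 0.25 on the log2 scale (adjusted p = 0.0117). Cd74 was higher by 1.16 ± 0.16 (adjusted p = 0.0117). H2-Ab1 averaged 135 and 193 in cKO and 61.8 and 85.7 in Control, and was higher by 1.10 ± 0.17 (adjusted p = 0.0178). H2-Eb1 averaged 39.8 and 80.9 in cKO and 12.3 and 21.6 in Control, and was higher by 1.74 ± 0.29 (adjusted p = 0.0315). For these 4 genes both cKO libraries lay above both Control libraries. H2-DMa, H2-DMb1 and Ifi30 had log2 changes of 0.052, 0.051 and 0.16 and did not pass, nor did H2-DMb2 (-0.19). Ciita was too low to test, with 1.26 and 4.18 CPM in cKO and 0.286 and 1.14 in Control. So 4 of the 8 genes that passed the filter on low counts were higher, where 0.104% of the 11547 genes tested were higher. Other genes higher in cKO, named after their values were seen, included Cxcl9 (3.74) and Iigp1 (1.67), both known as interferon-gamma targets, Ccl2 (0.80), Cdkn1a (0.93) and the heat-shock genes Hspa1b (1.40), Hspa1a (1.26) and Hspb1 (1.82). Heat-shock genes are known to rise with cell stress and handling, and their part in the class II difference was not tested.

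These 4 calls held without each library in turn, with log2 changes of H2-Aa from 1.31 (without cKO replicate 2) to 2.23 (without cKO replicate 1), 1.43 without Control replicate 1 and 2.18 without Control replicate 2. Without cKO replicate 2 they were 0.90 for Cd74, 0.83 for H2-Ab1 and 1.22 for H2-Eb1, and without Control replicate 1 they were 0.91 for Cd74, 0.84 for H2-Ab1 and 1.33 for H2-Eb1. With doublets removed at a fixed rate the call of H2-Eb1 was lost (adjusted p = 0.055). None of the 4 held in DESeq2, where the changes were 1.81, 1.11, 1.79 and 1.17 for H2-Aa, H2-Ab1, H2-Eb1 and for Cd74, and each adjusted p was 1. Among cells with at least 1% of their UMIs from the microglia markers the changes were 1.91, 1.09, 1.81 and 1.18, at adjusted p of 0.0827, 0.110, 0.372 and 0.0599. Among cells with no UMI of a border, monocyte or dendritic marker they were 1.96, 1.15, 1.88 and 1.24, at adjusted p of 0.255 to 0.582. In both sets the calls were lost while the log2 changes were larger than over all MGnD-high cells for at least 3 of the 4 genes.

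Markers of other cells were also measured in MGnD-high microglia. The summed level of the 3 border markers was 7.56 and 10.2 CPM in cKO and 4.68 and 4.29 in Control, so it was higher in cKO. The 4 monocyte markers summed to 5.18 and 6.87 in cKO and 3.72 and 2.27 in Control, with Ly6c2 and Chil3 at 0 in every library. The 6 dendritic markers summed to 2.24 and 4.48 in cKO and 2.67 and 2.65 in Control, with Ccr7 at 0 in every library. The 5 B cell markers summed to 226 and 213 CPM in cKO and 252 and 222 in Control, more than H2-Aa in every library. Of them Cd79a and Iglc2 were at 0 in every library and Ighm in none, and Ighm was the only one above 0 in 3 of the 4 libraries. The part of these markers in the genotype difference was not tested. Without the cells that held any border, monocyte or dendritic marker the difference in class II positive share was 10.4 points, and it was 9.57 points with them.

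A genotype by state term asked whether the genotype difference was larger in MGnD-high than in other microglia. It passed for H2-Aa (2.16 ± 0.13 on the log2 scale, adjusted p = 1.59e-06), H2-Eb1 (2.30 ± 0.20), H2-Ab1 (1.38 ± 0.099) and Cd74 (1.28 ± 0.13, adjusted p = 0.000572). These were 4 of the 9 class II genes, where 0.0468% of the 12818 genes tested passed, all in this direction. Without each library in turn the term was 1.96 to 2.36 for H2-Aa, 1.93 to 2.67 for H2-Eb1, 1.23 to 1.51 for H2-Ab1 and 1.01 to 1.52 for Cd74, and passed each time. In DESeq2 the term of Cd74 did not pass (adjusted p = 0.059). In other microglia the CPM levels overlapped for all 4, with H2-Eb1 at 13.3 and 16.2 CPM in cKO and 14.6 and 29.2 in Control. A few cells weighed heavily there: 5 of the other microglia held 54.4% of the summed UMIs of the 4 genes in Control replicate 1 and 37.7% in Control replicate 2, against 22.5% and 17.1% in cKO. Of the cells in the highest 1%, 2 of 29 and 2 of 23 in cKO and 9 of 31 and 4 of 20 in Control held a UMI of the monocyte marker Ccr2. In MGnD-high microglia 5 cells held 23.0% and 38.8% of the summed UMIs in cKO and 18.5% and 24.6% in Control. A single cell of cKO replicate 2 held 601 of them, 18.7%. The summed level in MGnD-high cells was 636 and 962 CPM in cKO and 266 and 377 in Control. Without the top 1% of MGnD-high cells it stood at 485 and 719 CPM in cKO and 208 and 289 in Control. In other microglia the summed level was 157 and 189 CPM in cKO and 142 and 266 in Control. Without their top 1% it was 81.8 and 110 in cKO and 48.4 and 94.0 in Control. The highest library there was Control replicate 2 with these cells and cKO replicate 2 without them. The genotype by state term was not fitted without the top 1% of either state. The share of other microglia with a UMI at full depth did not overlap: it was 3.50% and 4.92% in cKO and 1.89% and 2.91% in Control for H2-Aa, 12.1% and 14.3% in cKO and 9.73% and 11.6% in Control for H2-Ab1, 3.30% and 4.34% in cKO and 1.28% and 3.06% in Control for H2-Eb1, and 20.3% and 20.2% in cKO and 15.9% and 19.6% in Control for Cd74. Class II positive by that measure were 8.06% and 9.93% of other microglia in cKO and 5.32% and 6.89% in Control, at median depths of 6027 and 7234 UMIs in cKO and 5934 and 6192 in Control. Each of these full-depth shares thus lay higher in both cKO libraries, where the CPM did not. At 2000 UMIs the groups overlapped for each of them, with H2-Aa at 1.57% and 1.92% in cKO and 0.608% and 1.65% in Control. Cd74 was then at 8.13% and 8.81% in cKO and 5.54% and 8.34% in Control. At full depth the share of other microglia with H2-DMa also lay higher in both cKO libraries, at 75.2% and 75.3% against 71.8% and 75.1% in Control. So did that of Ifi30, at 65.2% and 66.7% in cKO and 58.9% and 61.6% in Control. How many of all genes lay higher in both cKO libraries at full depth was not counted, so no difference between genotypes is read from these shares.

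The term was smaller in stricter cell sets. Among cells with at least 1% of UMIs from microglia markers it was 1.48 for H2-Aa (adjusted p = 0.00704) and 0.91 for Cd74 (0.0396), and it no longer passed for H2-Ab1 (0.90, adjusted p = 0.110) and H2-Eb1 (1.43, adjusted p = 0.225). Among cells with no border, monocyte or dendritic marker it was 1.18 for H2-Aa, 0.77 for H2-Ab1, 1.17 for H2-Eb1 and 0.88 for Cd74, and none passed (adjusted p of 0.907 to 0.997).

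The other genes of the pathway formed a list of 27, of which 26 were tested and H2-Eb2 was not. Between genotypes none of the 26 passed in microglia, in MGnD-high microglia or in the genotype by state term in edgeR, where 4, 3 and 1 had an unadjusted p under 0.05. Cd40, the co-stimulatory receptor, had the smallest p in microglia (log2 change 1.40 ± 0.38, adjusted p = 0.541), and Cd83, a maturation marker, in MGnD-high cells (0.37 ± 0.088, adjusted p = 0.421). Between MGnD-high and other microglia 10 were higher and 10 lower with TMM, beside 27.9% and 27.2% of all genes, and 7 were higher and 16 lower when scaled to total UMIs. The lysosomal proteases Ctsb (1.44 ± 0.035), Ctsl (1.12 ± 0.036) and Ctss (0.48 ± 0.031, which cleaves Cd74) were higher, and so was H2-Oa (0.91 ± 0.045), a chain of the DO inhibitor of DM. Ifngr1, a chain of the interferon-gamma receptor, was lower (-0.84 ± 0.035), as was the protease Lgmn (-0.42 ± 0.028). These 6 kept their direction and call under total UMIs, with Ctss at 0.19. In border-gated barcodes 1 of 26 passed, Ctsl, which was lower than in microglia (-0.70 ± 0.16, adjusted p = 0.00383), where 0.174% of all genes were lower.

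The genes most like the 4 core genes within microglia, by the mean over libraries of the correlation across cells with the log of their summed UMIs, were Cst7 (r = 0.278), Apoe (0.264), Cd52 (0.250), Lyz2 (0.246), B2m (0.213), Clec7a (0.213), H2-D1 (0.195) and Lpl (0.191), over 12778 cells and 9787 genes. These correlations are weak, the cells of a library share its free RNA, and no test was made.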

How the data were processed

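The authors deposited raw UMI counts per gene and barcode, unfiltered and with no normalization. The submitters' processing notes name Cell Ranger 4.0.0 and mm10. The deposited barcode and gene name files (other: names, no measurement) only label the matrices. Totals were 41214799 and 33130800 UMIs in cKO and 47574406 and 33889598 in Control. Whether genes on opposite strands share reads is not given in the sources used here.

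Some marker genes of the gates are not reported here. The 9 genes, the lists, gates and tests were chosen with earlier results of these data known. Named genes were the 9, then of the 27 other pathway genes up to 6 that passed in a comparison, or the 3 of smallest p, and the 8 genes most correlated with the chains. All counts come from raw UMIs summed per library (cells are not replicates), fitted over all genes with edgeR 4.0.16 in R 4.3.3 (TMM, filterByExpr, quasi-likelihood F test, two-sided, Benjamini-Hochberg at 0.05), with the library as a block for state and class. With 2 libraries per group, which the labels call biological replicates, residual degrees of freedom are 2 (3 for state and class), so p-values borrow spread across genes. Levels in CPM are per gate total. No genome coordinates come from the files. Gene positions are from GENCODE M21 and promoter positions from RefSeq. Doublets were kept: Scrublet (in scanpy 1.11.5) called 1 cell, so removal of 401 by a fixed rate was an alternative only. Alternatives used DESeq2 1.42.0, total UMIs in place of TMM (chosen after seeing the data), no filter on low counts, blocks, thinning, other gates and each library left out.

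The tests were run on simulated counts: for genotype in MGnD-high microglia (11519 genes), 96% of genes changed by 2 on the log2 scale and 65.3% of those changed by 1 were recovered, and for genotype by state (12757 genes) 86.7% and 17.2%. Every gene was simulated with the same spread between libraries and from a single summed profile. No cells with many copies entered, so these rates need not hold for genes whose UMIs lie in few cells. Replicate numbers were not used to pair the samples in the main fits. The labels do not say whether equal numbers mark a shared litter or day, so pairing is unknown.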

Additional observations from a re-analysis of the deposited data

Results flagged for a closer look

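The genotype difference of 4 class II genes was larger in MGnD-high than in other microglia, by the genotype by state term in edgeR: 2.16 on the log2 scale for H2-Aa, 2.3 for H2-Eb1, 1.38 for H2-Ab1 and 1.28 for Cd74. The term rests on 8 sums from 4 libraries. It was 1.18, 1.17, 0.77 and 0.88 for the same 4 genes in cells with no border, monocyte or dendritic marker, where none passed.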

How the results depend on the processing

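The counts of genes called by genotype depend on the settings. In microglia, where 4 genes passed, 25 passed in DESeq2, 50 when scaled to total UMIs, 339 with no filter on low counts, 7 at 2000 UMIs per cell, 2 without MGnD-high cells, 0 without cells that held another class's markers (edgeR), and 15 to 468 without each library in turn. With the replicate block 89 passed. Over all kept barcodes, where 0 passed, 24 passed in DESeq2, 17 when scaled to total UMIs, 350 with no filter (2 of them class II genes), 170 with the replicate block (1 of them) and 26 to 613 without each library, with 0 to 2 class II genes in both sets of cells. In MGnD-high microglia, where 14 passed, 9 passed in DESeq2, 101 with no filter, 52 with the replicate block, 6 with at least 1% microglia marker UMIs, 1 without cells that held another class's markers and 30 to 132 without each library. The 4 class II genes among them came to 0 in DESeq2, in both stricter gates and with crossed replicate numbers as the block, to 3 with doublets removed, and to 4 without each library in turn. The same-numbered deviations correlated at -0.123 over 11438 genes, and the crossed pairing gave 54, 56 and 9 genes for microglia, all kept barcodes and MGnD-high microglia. The genotype by state term passed for 6 genes, for 3 in DESeq2, for 3 with the 1% gate (2 of them class II genes), for 0 without cells that held another class's markers, for 48 with no filter and for 15 to 132 without each library, 4 of them class II genes each time.

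Between MGnD-high and other microglia 6829 genes passed, 3877 at 2000 UMIs per cell and 5745 to 6604 without each library, with 6 to 8 class II genes. Between border-gated barcodes and microglia 108 passed, 56 in DESeq2, 41 without the library block and 60 to 90 without each library, with 4 to 7 class II genes. With all 3 border markers required, cKO replicate 1 had 1 barcode and was left out. The difference in class II positive share kept its direction in every alternative and was 0.997 to 2.38 points over microglia and 7.85 to 11.3 points in MGnD-high cells without each library. The number of class II genes whose shares did not overlap between genotypes was 5, all higher in cKO, as were 25.9% of the 13506 genes tested. It was 3 unthinned and 3 at 4000 UMIs, with no count over all genes in these settings.

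Of 627 alternative values of a class II gene's log2 change, 527 kept direction and side of the threshold and 53 changed sign, and of 63 of its share 8 changed sign. Scaled to total UMIs, for genotype in microglia H2-DMa was 0.01, H2-DMb1 0.05 and H2-DMb2 0.05, over all kept barcodes H2-DMa 0.02 and H2-DMb1 0.06, for MGnD-high against other microglia H2-DMb2 -0.23 and for border-gated barcodes Ifi30 0.03. For genotype in microglia H2-Eb1 was -0.01 with doublets removed and -0.09 at 2000 UMIs. Without MGnD-high cells H2-Aa was -0.41, H2-Ab1 -0.32, H2-Eb1 -0.61, Cd74 -0.21, Ciita -0.76 and H2-DMb2 0.01, and H2-DMb2 was 0.03 without cells that held another class's markers. Without each library these values ran from -0.10 to 0.75 (H2-Aa), -0.28 to 0.46 (H2-Ab1), -0.42 to 0.61 (H2-Eb1), -0.23 to 0.63 (Cd74), -0.21 to 0.06 (H2-DMa), -0.10 to 0.03 (H2-DMb2) and -0.49 to 0.87 (Ciita), and over all kept barcodes from -0.02 to 0.43 (H2-Ab1), -0.20 to 0.06 (H2-DMa) and -0.07 to 0.11 (H2-DMb2). For MGnD-high against other microglia H2-DMb2 was -0.01 without cells that held another class's markers, -0.38 at 2000 UMIs and -0.06 to 0.15 without each library. For border-gated barcodes H2-DMb2 ran from -0.19 to 1.69 and Ifi30 from -0.22 to 0.07. For genotype by state Ifi30 was 0.01 in DESeq2 and 0.02 without cells that held another class's markers, H2-DMa -0.11 and H2-DMb1 -0.03 at 2000 UMIs, and -0.01 and -0.04 with a gate of 4 state genes. Without each library H2-DMa ran from -0.04 to 0.12, H2-DMb1 from -0.02 to 0.11, H2-DMb2 from -0.66 to 0.02 and Ifi30 from -0.10 to 0.08. For genotype in MGnD-high cells H2-DMa was -0.06 at 2000 UMIs, -0.0019 with 4 state genes and -0.02 to 0.11 without each library, H2-DMb1 -0.0017 and -0.03 under the first 2 of these, and H2-DMb2 -0.59 to 0.03 without each library. The genotype difference in share was 0.115 points (H2-DMa) and 0.0687 (Ciita) unthinned, and -0.369 (H2-DMb2) and 0.0592 (Ciita) at 4000 UMIs. Without each library it ran from -0.17 to 3.18 (Cd74), -3.36 to 2.21 (H2-DMa) and -0.121 to 0.0304 (Ciita). The causes were not tested.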
